A study of Mus musculus with 10 samples.

Results

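Immediate early genes and heat shock genes were followed through laser-captured cell layers of the enamel organ, the dental epithelium of the mouse that makes enamel. The set held 36 genes, picked by symbol: 24 immediate early genes and 12 heat shock genes and their partners. Of 17305 genes listed in at least 1 of the 2 deposited tables, 35 members were listed for ameloblasts, 35 for stratum intermedium and 34 for both. Egr2 was listed for ameloblasts alone and Hspa1b for stratum intermedium alone. All listed members passed the filter on low values, a mean of at least 10 normalized counts over the 5 libraries of a table.

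The libraries came from hemi-mandibles of wild-type mice (WT) and of mice with a knockout (KO) of claudin-10, a tight junction protein that forms paracellular ion channels. Ameloblasts, which secrete and then mature enamel, and stratum intermedium, the cell layer behind them, were captured separately from frozen slides at room temperature within at most 2 h per slide. Each layer had 2 WT and 3 KO libraries and no treatment. Library names carried the prefixes WT5, WT10, KO1, KO3 and KO9 in both layers, and each prefix was taken here as 1 mouse, which the labels do not state. The labels do not say either that libraries of a group came from separate animals, so p-values measure how far these libraries differ from each other, which may be technical spread. Not given in the sources used here are age, sex, strain, the kind of allele, the deleted stretch of Cldn10 and whether animals were pooled.

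Cldn10 itself, read first because it checks the labels, had all KO libraries below all WT libraries in each layer. In ameloblasts it stood at 752 and 600.1 normalized counts in WT5 and WT10 and at 280.1, 408 and 149 in KO1, KO3 and KO9. The stratum intermedium held 2365 and 7257 in WT5 and WT10 and 1003, 387 and 465 in the KO libraries in the same order. Both captures held RNA of other cells. Fibroblast and odontoblast markers took 2.69% to 4.60% of the counts in ameloblast captures. In stratum intermedium captures they took 1.97% to 4.94%, more than that layer's own markers in every library. The summed share of 7 ameloblast markers was 2.18% to 9.12% in ameloblast captures and 0.123% to 0.942% in stratum intermedium captures. That of 7 stratum intermedium markers was 0.0801% to 0.187% and 0.153% to 0.400%, so the 2 layers were set apart less clearly by the second list. Every list of markers was measured in full in both layers. Prefix WT5 stood apart in blood and bone cell markers: its red blood cell markers took 1.28% and 0.911% of the counts in ameloblasts and stratum intermedium, against 0.0814% to 0.258% in the other 8, and its osteoclast markers 0.734% and 0.891%, against 0.0978% to 0.577%. Prefix WT10 had the most genes listed at 0, with 706 in ameloblasts and 854 in stratum intermedium, against 33 and 36 in WT5. KO1 had 224 and 633, KO9 had 420 and 210, and KO3 had 41 and 109. Xist was at 5791 to 9555 in KO1 and KO3 and at 0 to 33.2 in the other prefixes. The Y-linked gene Ddx3y was at 0 in KO1 and KO3 and at 1980 to 2781 in WT5, WT10 and KO9. Sex thus differs within the KO group, and by these genes KO9 alone among the KO prefixes matches the WT prefixes. Contrasts of KO with WT, and of KO9 with KO1 or KO3, therefore carry sex as well, and its part was not tested. In bulk captures, fewer cells of a type and less RNA per cell cannot be told apart.

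Immediate early genes are switched on within minutes of a growth factor, stretch, injury or stress, without new protein synthesis, through factors already in the nucleus such as serum response factor (SRF) and CREB. Their products are mostly short-lived transcription factors and feedback inhibitors, and they are known to respond to the dissection and warming of a tissue as well as to signals in the living animal. Heat shock genes encode chaperones that fold or hold other proteins. Some are abundant at all times and others are induced by heat shock factor 1 when proteins unfold, which is also a known response to handling.

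Some promoters of the set hold a motif by which these pathways are known to act, and 6 stretches are shown as examples of these motifs. RefSeq promoter windows of 300 bases, from 250 before to 50 after the start, were matched for 28 of the 36 members. The motifs searched on both strands were of 3 kinds: the CArG box bound by SRF, the full cyclic AMP response element (CRE, TGACGTCA), and the heat shock element with 2 facing units, GAANNTTC or TTCNNGAA. Each line gives the 150 bases upstream of the start in GRCm38.p6, 5′ to 3′ on the gene's strand, with the motif in capitals. Zfp36 (chr7:28379229-28379378, minus strand) holds a CArG box, Dusp1 (chr17:26508473-26508622, minus strand) a CRE, and the others heat shock elements: Hspb1 (chr5:135887769-135887918, plus strand), Hspd1 (chr1:55087933-55088082, minus strand), Hspa1a (chr17:34972157-34972306, minus strand) and Hspa1b (chr17:34959239-34959388, minus strand).
Zfp36: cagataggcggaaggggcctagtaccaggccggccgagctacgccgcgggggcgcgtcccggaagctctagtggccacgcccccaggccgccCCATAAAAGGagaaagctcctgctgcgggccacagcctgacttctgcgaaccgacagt
Dusp1: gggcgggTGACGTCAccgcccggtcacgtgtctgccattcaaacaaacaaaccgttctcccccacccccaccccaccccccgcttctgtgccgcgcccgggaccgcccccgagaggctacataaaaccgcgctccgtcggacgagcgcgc
Hspb1: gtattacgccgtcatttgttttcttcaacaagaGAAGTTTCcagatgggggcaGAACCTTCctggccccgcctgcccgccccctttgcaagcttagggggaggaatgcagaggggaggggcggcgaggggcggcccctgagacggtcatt
Hspd1: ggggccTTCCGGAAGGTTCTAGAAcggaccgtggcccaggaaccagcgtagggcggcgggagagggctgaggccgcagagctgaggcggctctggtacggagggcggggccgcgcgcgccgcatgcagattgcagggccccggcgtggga
Hspa1a: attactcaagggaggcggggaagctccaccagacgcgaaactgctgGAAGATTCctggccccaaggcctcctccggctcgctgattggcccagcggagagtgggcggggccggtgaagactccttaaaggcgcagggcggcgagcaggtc
Hspa1b: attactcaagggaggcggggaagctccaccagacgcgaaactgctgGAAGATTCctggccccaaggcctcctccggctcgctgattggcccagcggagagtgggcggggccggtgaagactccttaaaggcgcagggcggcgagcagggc

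The CArG box of Zfp36 begins 58 bases before the start and the CRE of Dusp1 begins 143 bases before it. In Hspb1 the elements begin 117 and 97 bases before the start, and in Hspd1 overlapping elements begin 144, 139 and 134 bases before it. A heat shock element of this form was found for 8 of 9 matched heat shock members (Bag3, Dnaja1, Hspa1a, Hspa1b, Hspb1, Hspd1, Hspe1 and Hsph1) and for 3 of 19 matched immediate early members (Egr2, Fosl2 and Jun). Among all genes with a window, 17.0% held one. A CArG box was found for 2 of 19 immediate early members, Egr2 and Zfp36, against 1.81% of all genes, and a CRE for 3 of 19, Btg2, Dusp1 and Maff, against 2.03%. Neither was searched beyond these windows, and a match is a string of letters, not a measured binding site. Hspa1a and Hspa1b are neighbouring, near-identical copies, and their printed stretches, which lie upstream of the start, match at 149 of 150 bases. Their transcripts were not compared here, and whether reads matching both copies were divided or dropped is not known. Hspd1 and Hspe1 lie head to head on chromosome 1, so the stretch printed for Hspd1, from 1 of its 2 RefSeq windows, also lies upstream of Hspe1.

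**Figure D1:**
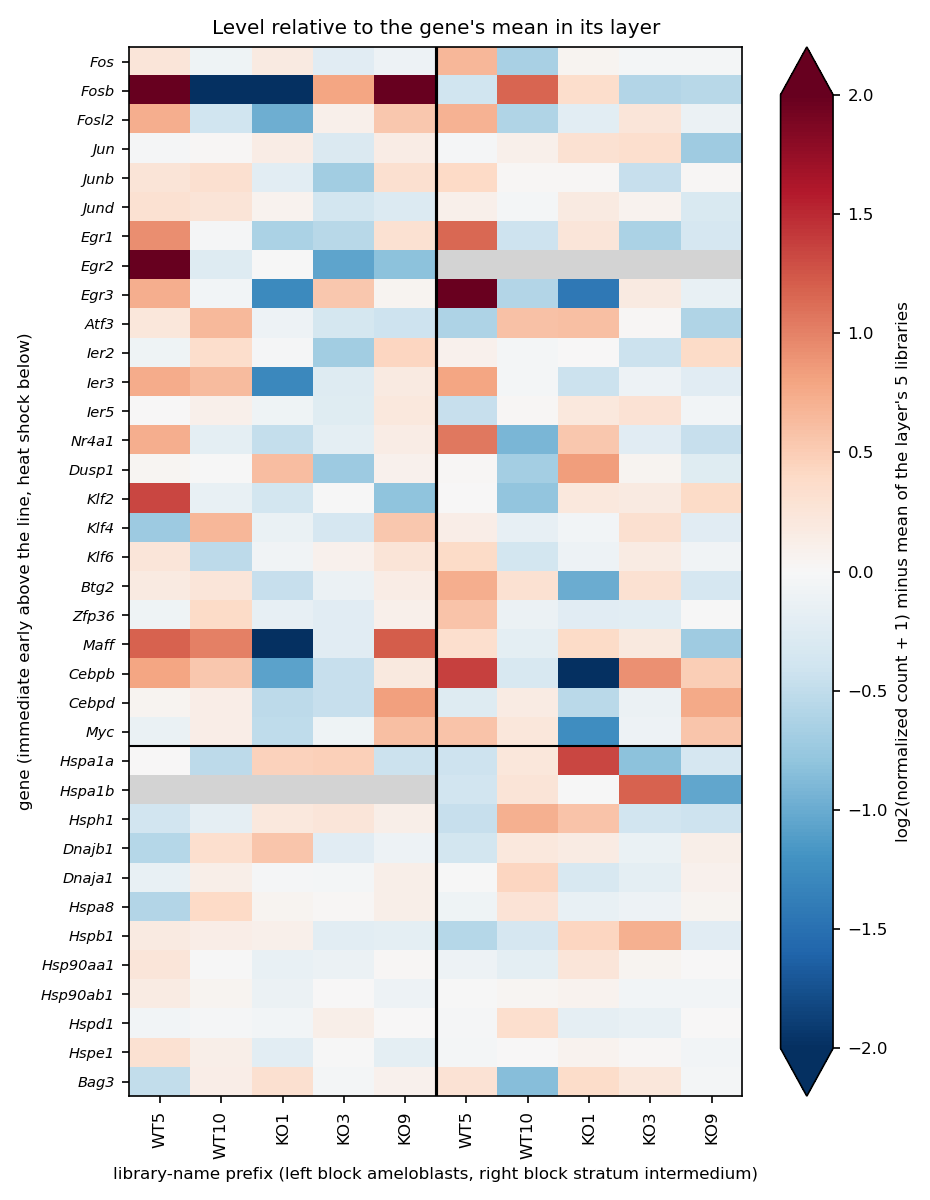
Each cell is the log2(normalized count + 1) of a gene in 1 library minus that gene's mean over the 5 libraries of the layer, with immediate early genes above the line, heat shock genes below it, and grey where the gene was not listed. In WT5 many immediate early genes sit above their mean in both blocks, whereas in KO9 many do so in the ameloblast block and few in the other. Abundant chaperones such as Hsp90ab1 and Hspd1 differ little between libraries.

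The immediate early members varied more between libraries than the heat shock members. The highest library was at least 2 times the lowest for 17 of 24 immediate early members in ameloblasts and for 16 of 23 in stratum intermedium, with median ratios of 2.42 and 2.35. Here a gene with a library at 0 was counted as at least 2 times. The same was so for 2 of 11 heat shock members in ameloblasts and 5 of 12 in stratum intermedium, with median ratios of 1.42 and 1.60. Over all genes tested the shares were 59.9% and 55.2% and the median ratios 2.32 and 2.16, so the immediate early members were near the background and the heat shock members below it. The heat map of deviations from the layer mean shows this difference as pale lower rows.

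Among the AP-1 subunits, the Fos and Jun family proteins that bind DNA in pairs, Fos and Jun were plentiful in every library. Fos (chr12:85473890-85477273) was at 1845 and 1459.7 normalized counts in the ameloblasts of WT5 and WT10 and at 1769, 1322 and 1443 in those of KO1, KO3 and KO9. Stratum intermedium libraries had 2153 in WT5, 865 in WT10 and 1398, 1318 and 1316 in the KO libraries. WT5 was thus the highest library in both layers, and in stratum intermedium the 2 WT libraries lay on either side of all KO libraries. Jun (chr4:95049034-95052222) was at 1551, 1599.5, 1749, 1289.5 and 1748 in the ameloblasts of WT5, WT10, KO1, KO3 and KO9. Stratum intermedium libraries had 2214, 2404, 2777, 2836 and 1376 in that order, so that KO9 was lowest there and level with KO1 in ameloblasts. Junb, at 1212, 1261, 874, 625 and 1268 in ameloblasts and at 1261, 977, 975, 697 and 974 in stratum intermedium, was lowest in KO3 in both layers. Fosl2 (chr5:32135801-32157842), a Fos relative with a longer-lived product, was at 2555 and 1182 in the WT ameloblasts and at 789, 1662 and 2254 in those of KO1, KO3 and KO9. In stratum intermedium Fosl2 was at 2810.0 and 1146 in WT5 and WT10 and at 1504, 2073 and 1602 in the KO libraries. WT5 was the highest library of each layer and more than 2 times WT10 in both. Jund, the least inducible Jun protein, ranged from 411 to 656 in ameloblasts and from 344 to 482 in stratum intermedium. Fosb was the scarcest AP-1 member, at 0 to 36.2 in ameloblasts, where WT10 and KO1 were listed at 0, and at 19.2 to 67.2 in stratum intermedium.

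The Egr zinc finger factors, which SRF and its partners switch on, were highest in WT5 wherever they were listed. Egr1 was at 1672 and 861 in the ameloblasts of WT5 and WT10 and at 563, 597 and 1079 in those of KO1, KO3 and KO9. In stratum intermedium Egr1 was at 1868 and 630.2 in WT5 and WT10 and at 1001, 541 and 671 in the KO libraries. Its WT and KO libraries overlapped in both layers. Egr3 was at 387, 225, 96.2, 341 and 242 in the ameloblasts of WT5, WT10, KO1, KO3 and KO9 and at 431, 72.0, 39.8, 124 and 97.8 in stratum intermedium, where WT5 was more than 3 times any other library. KO1 was the lowest library for Egr3 in both layers. Egr2 was at 136 in the ameloblasts of WT5 and at 14.1 to 29.9 in the other 4 libraries.

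Nr4a1, an orphan nuclear receptor induced by calcium and cyclic AMP signals, followed the same order among WT libraries. It was at 554 and 292 in the ameloblasts of WT5 and WT10 and at 240.1, 292 and 371 in those of KO1, KO3 and KO9. The stratum intermedium values were 712 and 182 in WT5 and WT10 and 500.0, 293 and 250.3 in the KO libraries, so the 2 WT libraries were again the highest and the lowest. Atf3, a repressor of the CREB family induced by stress, went the other way: WT10 exceeded WT5 in both layers. It was at 216 and 288 in the WT ameloblasts and at 171, 144 and 137 in the KO ameloblasts, and the groups did not overlap. In stratum intermedium it was at 149, 346, 349.9, 235 and 152 in WT5, WT10, KO1, KO3 and KO9, and the groups overlapped. Maff, a small partner of other leucine zipper factors, was at 80.7 to 93.7 in 3 ameloblast libraries, at 33.7 in KO3 and at 3.53 in KO1, and ranged from 46.7 to 100.5 in stratum intermedium.

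The feedback inhibitors and other early response proteins did not share 1 pattern. Dusp1, a phosphatase that inactivates MAP kinases, was at 1403, 1353, 2086, 823 and 1443 in the ameloblasts of WT5, WT10, KO1, KO3 and KO9. The stratum intermedium values were 1399.9, 862, 2474, 1429.9 and 1165, and KO1 was the highest library in both layers. Ier3 (chr17:35821684-35822923), which sustains ERK signalling and limits cell death, was at 1233 and 1142 in the WT ameloblasts and at 302, 615 and 840.4 in the KO ameloblasts. In stratum intermedium Ier3 was at 1381 and 773 in WT5 and WT10 and at 591, 740.3 and 683 in the KO libraries. The WT and KO libraries of Ier3 did not overlap in either layer, and KO1 was lowest in both. Ier2, a nuclear protein of the early response, was at 1378, 1867, 1443, 902 and 1975 in ameloblasts and at 1568, 1439, 1493, 1098 and 1939 in stratum intermedium, highest in KO9 and lowest in KO3 in both layers. Btg2, which slows the cell cycle and promotes mRNA decay, was at 1807, 1877, 1156, 1460.2 and 1769 in ameloblasts. Its stratum intermedium values were 1717, 1279, 518, 1280.0 and 817, with KO1 lowest in both layers. Zfp36, which destabilises AU-rich mRNAs, ranged from 1459 to 2246 in ameloblasts and from 1131 to 1969.9 in stratum intermedium. Ier5, which acts on heat shock factor 1, ranged from 199.9 to 274 and from 216 to 363.

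The remaining immediate early members are transcription factors of growth and differentiation. Myc (chr15:61985391-61990374), a driver of cell growth, was at 1649.8 and 1993 in the ameloblasts of WT5 and WT10 and at 1267, 1708 and 2744 in those of KO1, KO3 and KO9. In stratum intermedium it was at 2393 and 1892 in WT5 and WT10 and at 680.4, 1502 and 2384 in the KO libraries. The order KO1, KO3, KO9 from low to high was the same in both layers. Cebpd (chr16:15887286-15891031), an acute phase factor, was at 377, 398, 252, 264 and 645 in ameloblasts and at 439.7, 589, 362, 488 and 888 in stratum intermedium, and its KO libraries had the same order as those of Myc. Klf2, a factor best known from endothelium, was at 347, 124, 106, 137 and 77.9 in ameloblasts. In stratum intermedium Klf2 was at 232, 133, 266, 262 and 299, and KO9 was lowest in the first layer and highest in the second. Klf6 ranged from 2166 to 3716 in ameloblasts and from 3223 to 5374 in stratum intermedium, and WT10 was the lowest library in both. Klf4, an epithelial differentiation factor, ranged from 1921 to 5061 in ameloblasts and from 1147 to 1673 in stratum intermedium, and the 2 ranges did not meet, though the tables were normalized separately. Cebpb was low throughout, at 14.1 to 54.0 and at 3.90 to 69.1.

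Per kilobase of exon, the constitutive cytosolic chaperones Hsp90ab1 and Hspa8 stood highest and the inducible Hspa1a was far lower. Median normalized counts per kilobase in ameloblasts and stratum intermedium were 8929 and 10169 for Hsp90ab1, the constitutive cytosolic HSP90, and 8225 and 7004 for Hspa8, the constitutive cytosolic HSP70. They were 44.3 and 77.0 for Hspa1a, the stress-induced HSP70. How reads that match both Hspa1a and its copy Hspa1b were counted is not known, so the Hspa1a values may be understated. Other inducible members were abundant on this scale, with 3486 and 3109 for Hspb1 and 1670.4 and 2316 for Hsp90aa1, above the mitochondrial chaperonin Hspd1 at 1559 and 2038. Fos, for comparison, stood at 621 and 560 on the same scale.

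Hspa1a (chr17:34969190-34972156) was at 132, 91.4, 182, 183 and 97.5 normalized counts in the ameloblasts of WT5, WT10, KO1, KO3 and KO9. In stratum intermedium it was at 217, 337, 727, 162 and 229, with KO1 more than 2 times any other library there but level with KO3 in ameloblasts. Its copy Hspa1b was at 8.80, 14.2, 11.6, 27.8 and 5.17 in stratum intermedium and was not highest in the same library as Hspa1a. Hspa8 (chr9:40800984-40810087) was at 22698 and 45139 in the WT ameloblasts and at 35375, 34500.1 and 36892 in the KO ameloblasts. In stratum intermedium Hspa8 was at 30123 and 38815 in WT5 and WT10 and at 29034, 29917 and 33509 in the KO libraries. The 2 WT ameloblast libraries of Hspa8 therefore lay outside the narrow KO range on opposite sides. Hsp90aa1, the inducible HSP90, was at 7775, 6566, 5910.5, 6087 and 6656 in ameloblasts and at 8518, 7973, 10710.0, 9439 and 9103 in stratum intermedium, where all KO libraries lay above both WT libraries. Hspb1 (chr5:135887919-135889563), a small heat shock protein that also guards the actin cytoskeleton, was at 3821, 3669.9, 3594, 2886 and 2933 in ameloblasts. Its stratum intermedium values were 2535, 2961, 5044, 6115 and 3206. KO libraries were all below WT in the first layer and all above WT in the second.

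The partners of HSP70 ordered the libraries in different ways. Dnaja1 was at 3393, 4103, 3697, 3658 and 4077 in the ameloblasts of WT5, WT10, KO1, KO3 and KO9 and at 4386, 5948, 3520.0, 3817 and 4664 in stratum intermedium. Dnajb1, which starts the HSP70 cycle, ranged from 1072 to 2333 and from 1328 to 2001, and WT5 was lowest in both layers. Bag3, which releases clients from HSP70 towards autophagy, was at 555, 858, 974, 756 and 825 in ameloblasts. In stratum intermedium Bag3 was at 875, 399, 928, 839 and 702, so the order of the WT libraries was opposite in the 2 layers. Hsph1, the exchange factor, ranged from 209 to 323 and from 303 to 681. The mitochondrial pair varied little, with Hspd1, the HSP60 chaperonin, at 4052 to 4555 and 4857 to 6888 and its lid Hspe1 at 1843 to 2615 and 2527 to 2748. Hsp90ab1 ranged from 24698 to 29794 and from 29283 to 32158.

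The question put to the set was whether its members follow the mouse, with both libraries of a prefix moving together, or follow the layer. The mouse was tested with limma on all 10 libraries: after layer, genotype and their interaction were taken out, a moderated F test of 3 contrasts asked whether the 2 libraries of a prefix deviated together from their genotype. Of 15567 genes tested, 88 (0.565%) passed an adjusted p of 0.05, and none of the 34 members did. At an unadjusted p under 0.05 there were 9 members of 34, against 2613 genes (16.8%) in all. The 9 were 8 of 23 immediate early members (34.8%) and 1 of 11 heat shock members. No member can be called by this test, and the share of immediate early members below 0.05 was about 2 times that of all genes. On leaving out each prefix in turn it was 6 or 7 of 23, against 13.1% to 15.3% of all genes. The library names also carry a group number that the sources used here do not explain: WT5 and KO3 are in group 1, WT10 and KO9 in group 2 and KO1 in group 3. With that number in place of the prefix, 5 of 23 immediate early members and 13.5% of all genes were below 0.05. The group 1 prefixes, WT5 and KO3, also had the fewest genes listed at 0 in each layer.

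**Figure D2:**
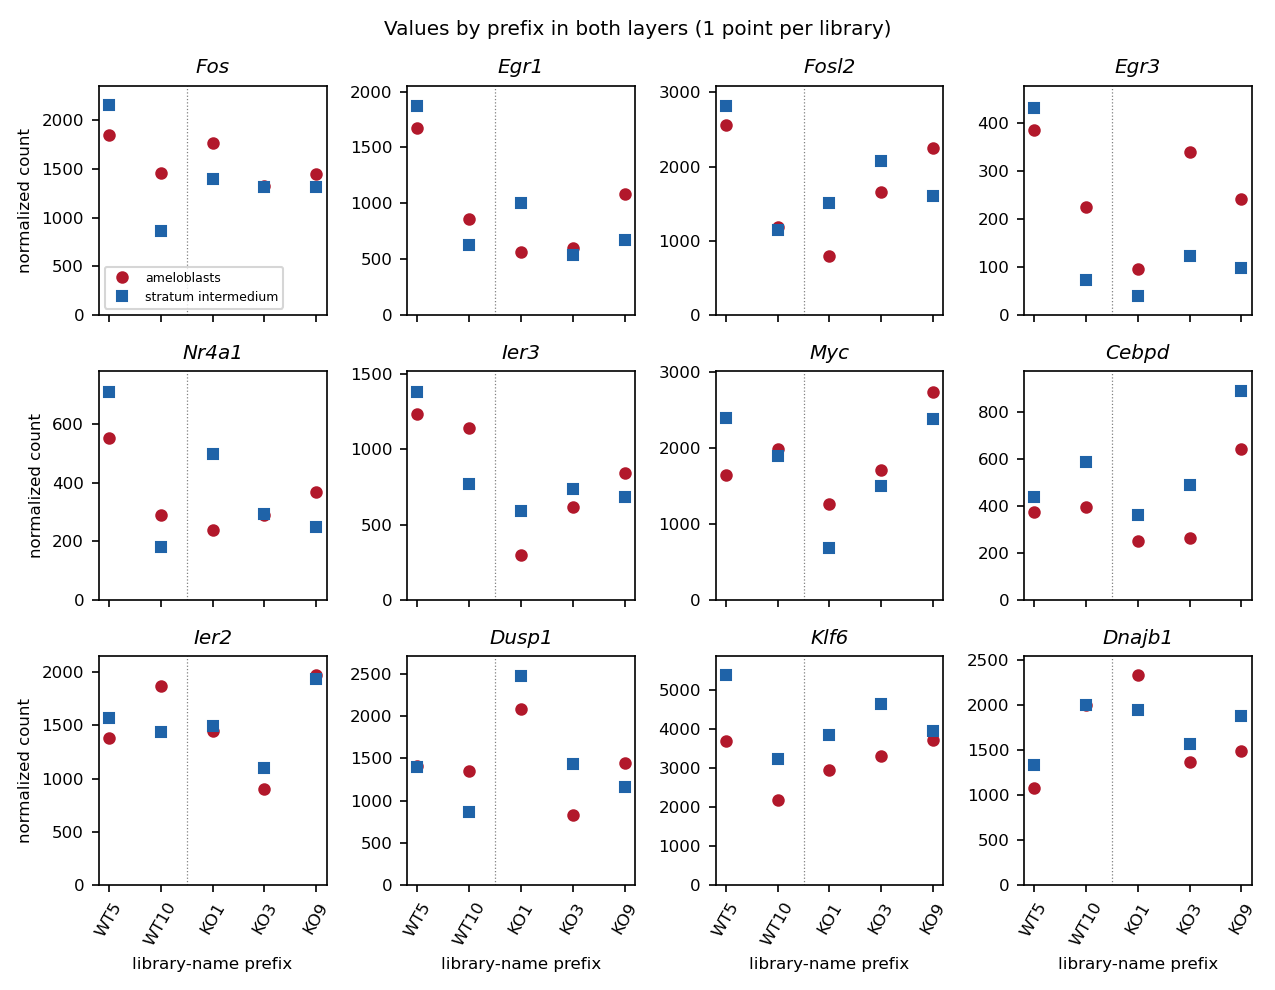
Normalized counts of 12 members by library-name prefix, with circles for ameloblasts and squares for stratum intermedium, 1 point per library, and a dotted line between WT and KO prefixes. Fos, Egr1, Fosl2, Egr3, Nr4a1 and Ier3 are highest in WT5 in both layers, and Myc, Cebpd and Ier2 are highest among KO prefixes in KO9 in both.

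The smallest p among members was that of Myc (F = 11.1, limma unadjusted p = 0.00443, adjusted p = 0.138), whose KO9 libraries exceeded the KO1 libraries by 1.46 on the log2 scale (SE 0.25). Cebpd followed (F = 8.67, limma unadjusted p = 0.00886, adjusted p = 0.171), with KO9 above KO1 by 1.32 (SE 0.28). For Fosl2 (F = 7.49, limma adjusted p = 0.193) the WT10 minus WT5 difference was -1.20 (SE 0.32). For Ier2 (F = 7.31, limma adjusted p = 0.196) KO3 minus KO1 was -0.56 and KO9 minus KO1 was 0.42 (SE 0.21 for each). The other 5 members below an unadjusted 0.05 were Egr3, Klf6, Dnajb1, Dusp1 and Egr1, with limma adjusted p-values from 0.196 to 0.271. Egr3 had the widest contrasts of these, -1.67 for WT10 minus WT5 and 1.71 for KO3 minus KO1 (SE 0.52 for each). For Nr4a1 and Fos the WT10 minus WT5 differences were -1.44 (SE 0.46) and -0.83 (SE 0.26), with limma unadjusted p-values of 0.0849 and 0.0683 over all 3 contrasts. Without KO9, the F of Cebpd was 0.65 and that of Myc 4.25, and without KO3 the F of Ier2 was 1.72. The plot of values by prefix shows these members library by library.

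The order of the libraries was also read without a model. WT5 was the highest of 5 libraries in both layers for 7 of 23 immediate early members (Cebpb, Egr1, Egr3, Fos, Fosl2, Ier3 and Nr4a1), for 0 of 11 heat shock members and for 7.45% of all genes. No other prefix was counted in this way, and WT5 was not chosen apart from these values. With no prefix named, the same one was highest in both layers for 10 of 23 immediate early members, against 30.6% of all genes, a smaller gap. WT5 exceeded WT10 in both layers for 12 of 23 immediate early members, for 1 of 11 heat shock members (Hsp90aa1) and for 31.5% of all genes. The reverse held for 4 of 23 immediate early members (Atf3, Cebpd, Ier5 and Jun), for 5 of 11 heat shock members (Dnaja1, Dnajb1, Hspa8, Hspd1 and Hsph1) and for 28.7% of all genes. The 2 WT libraries were in the same order in both layers for 22 of 34 members, against 60.2% of all genes, which is near the background. The median WT10 minus WT5 difference was -0.35 for the immediate early members, 0.08 for the heat shock members and -0.05 for all genes. WT5 was also the prefix with the most red blood cell and osteoclast RNA. The WT10 minus WT5 medians of those marker lists were -2.45 and -1.78, and that of macrophage and leukocyte markers was -1.89, with 6 of 6 of the latter higher in WT5 in both layers. The medians were -3.11 for skeletal muscle markers, -0.94 for endothelial markers and -0.87 for fibroblast and odontoblast markers. In these lists WT5 exceeded WT10 in both layers for fewer genes: 3 of 6, 5 of 7 and 4 of 6 in that order. The muscle genes Mb and Tcap were listed at 0 in the WT10 ameloblasts, and Myh4, Mb and Tcap were higher in WT10 in stratum intermedium. The part of such cells in the immediate early values of WT5 was not tested.

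Among KO prefixes the order was shared by both layers at about the rate of other genes. In KO1, and likewise in KO3, 4 of 23 immediate early members lay above their layer mean in ameloblasts and 13 in stratum intermedium. In KO9 the counts were 19 and 6, so these prefixes did not move together across layers as a set. The counts were 18 and 18 in WT5 and 14 and 8 in WT10. Of 15567 genes, 7870 to 8637 lay above the mean in each library. The same KO prefix was highest in both layers for 13 of 34 members, against 43.2% of all genes, and lowest in both for 14 of 34, against 44.7%. The full order of the 3 KO prefixes matched for 6 of 34 members (Atf3, Cebpd, Dnajb1, Egr3, Ier2 and Myc), against 25.1%. KO1 was the lowest KO prefix in both layers for 8 of 23 immediate early members (Btg2, Cebpb, Cebpd, Egr3, Fosl2, Ier3, Klf6 and Myc), for Hspd1 and for 18.7% of all genes. KO9 was the highest KO prefix in both for Cebpd, Dnaja1, Hspa8, Ier2, Myc and Zfp36, 6 of 34 members, against 14.5%. KO1 as lowest and KO9 as highest were not chosen apart from these values, and no other KO prefix was counted in this way. With no prefix named, the same KO prefix was lowest in both layers for 11 of 23 immediate early members and highest for 9 of 23. Both are near the 44.7% and 43.2% of all genes. Over all 5 prefixes, the same one was highest in both layers for 13 of 34 members, against 30.6%, and lowest for 12 of 34, against 29.3%. Ameloblast markers made up 9.12% of the KO1 ameloblast library, 3.80% of that of KO3 and 2.18% of that of KO9, an order opposite to that of Myc. Their part in these orders was not tested.

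As shares of each gene's sum of squares over the 10 log2 values, the median immediate early member had 47.3% between prefixes of a genotype, 14.4% between layers, 7.99% between genotypes and 1.85% in the layer by genotype term. The corresponding medians were 22.4%, 18.1%, 7.24% and 18.3% for heat shock members and 36.5%, 12.5%, 4.92% and 4.51% for all genes. The prefix share exceeded the layer share for 17 of 23 immediate early members, 6 of 11 heat shock members and 71.0% of all genes. The prefix term spans 3 contrasts, more than the layer term, so raw shares favour prefixes even for values without any structure. With 3 residual degrees of freedom, such values also give prefixes about 50% of the spread within genotype and layer. The shares of members are therefore read only beside those of all genes. Of the spread left within genotype and layer, prefixes held a median of 74.1%, 53.8% and 64.0%, and more than 50% in 24 of 34 members and 66.9% of all genes. The members with the largest prefix shares were Ier2 at 82.5%, Dnajb1 at 81.6%, Cebpd at 81.0% and Fosl2 at 78.7%. Klf4 was the plainest exception, with 75.2% between layers and 5.6% between prefixes.

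The layer itself was described and not tested, because the tables had been normalized separately. Each prefix gave an ameloblast minus stratum intermedium difference on the log2 scale, from which the median over 15567 shared genes was subtracted. Higher in ameloblasts in 5 of 5 prefixes were 4 of 34 members, against 11.1% of all genes: Klf4 (median 1.31, range 0.55 to 2.18), Egr3 (median 1.47, range 0.02 to 1.74), Btg2 (median 0.66, range 0.25 to 1.30) and Jund (median 0.52, range 0.03 to 0.71). Before the subtraction, Egr3 in WT5 (387 and 431 in ameloblasts and stratum intermedium) and Jund in KO3 (411 and 448) were lower in ameloblasts. Cebpd alone was higher in stratum intermedium in 5 of 5 (range -0.73 to -0.05), against 9.96% of all genes. No heat shock member lay on 1 side in all prefixes, although Hspa1a had the widest median among them, -1.05, and was higher in ameloblasts in KO3 alone. The median over members was 0.10 for immediate early genes and -0.06 for heat shock genes, and Fos and Egr1 had medians of 0.31 and 0.30. Without prefix WT5, the number on 1 side in all remaining prefixes was 8 of 23 immediate early members and 4 of 11 heat shock members, near the 35.9% of all genes. By the same measure 4 of 7 ameloblast markers were higher in ameloblasts in 5 of 5 prefixes, with a median of 3.11. Of 7 stratum intermedium markers, a list that includes Cldn10, 0 were higher in stratum intermedium in 5 of 5 prefixes, with a median of -0.51. Among endothelial markers 6 of 7 were higher in stratum intermedium in 5 of 5, with a median of -1.59. The measure thus set apart the second layer's own markers less clearly.

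**Figure D3:**
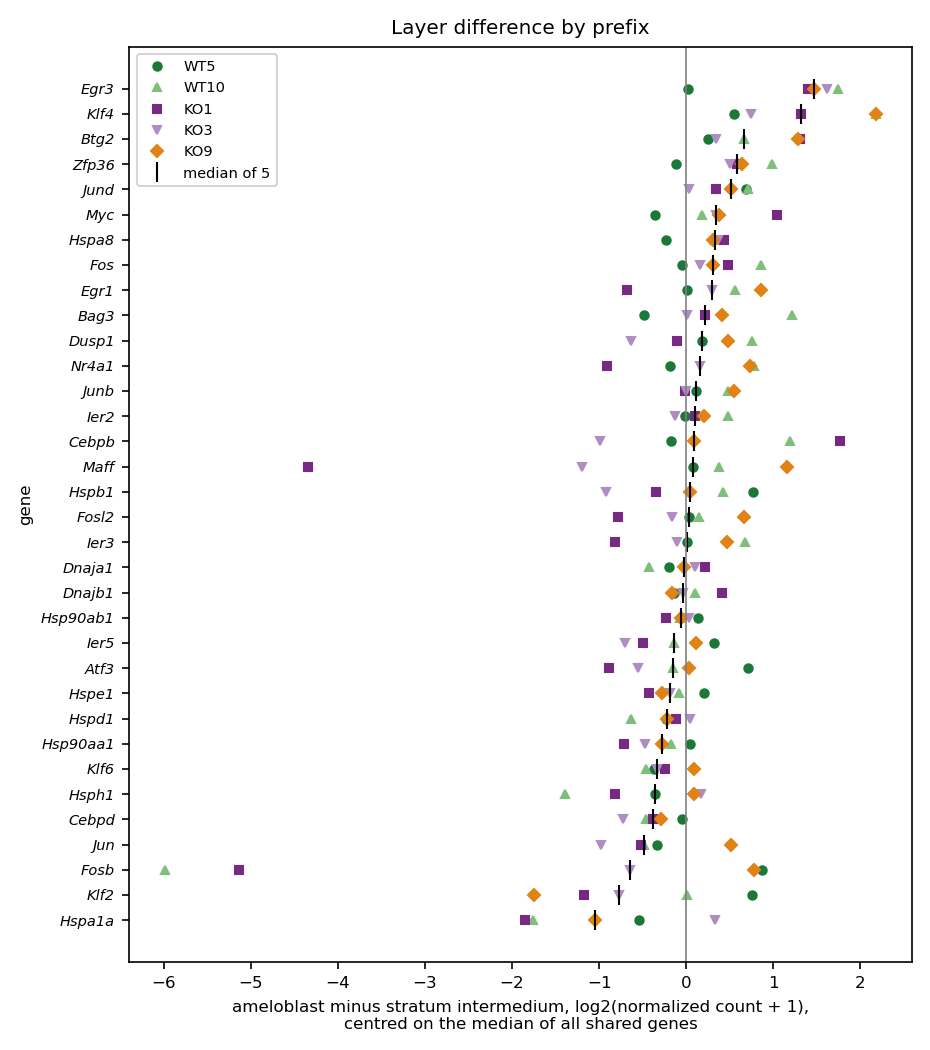
Ameloblast minus stratum intermedium difference in log2(normalized count + 1), centred on the median of all shared genes, for 34 members, with 1 symbol per prefix and a black bar at the median. Most members have symbols on both sides of 0, and Klf4, Egr3, Btg2 and Jund have all 5 to the right.

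For KO against WT in ameloblasts, limma on log2(normalized count + 1) called 0 of 16212 genes at an adjusted p of 0.05 (0%) and 498 genes (3.07%) at an unadjusted p under 0.05, of which those higher in KO were 2.25% of all genes tested and those lower 0.820%. Ier3, lower in KO, was the 1 member of 35 among the 498, with means ± SD of 1188 ± 64.7 over 2 WT and 586 ± 270.4 over 3 KO libraries, a log2 difference of -1.14 (SE 0.44, limma unadjusted p = 0.0365, adjusted p = 0.989). Atf3 came next at 252 ± 50.6 and 150.5 ± 17.9 (log2 -0.73, SE 0.38, limma unadjusted p = 0.0978). Egr1 had a log2 difference of -0.75 (SE 0.41) and Klf2 one of -0.99 (SE 0.57), which was -0.25 without WT5. Differences lay below 0 for 20 of 24 immediate early members (median -0.32) and for 4 of 11 heat shock members (median 0.06), against 47.0% of all genes (median 0.04). All KO libraries lay below all WT libraries for 8 of 35 members (Atf3, Btg2, Cebpb, Hsp90ab1, Hspb1, Hspe1, Ier3 and Jund), against 9.26% of all genes. They lay above for Hsph1 alone, against 9.09%. Red blood cell and osteoclast markers had lower values in KO for 5 of 5 genes each, with medians of -2.33 and -0.97, and their part in these differences was not tested. Without WT5 the count below 0 was 18 of 24 for immediate early members and 8 of 11 for heat shock members, with a median of -0.11 for the latter. The count of all genes below 0 was then 8113 of 16212. With the library group number as a term, which compares KO with WT within groups 1 and 2, the Ier3 difference was -0.72 (limma unadjusted p = 0.0738).

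In stratum intermedium limma called 0 of 16543 genes (0%) at an adjusted p of 0.05 and 340 (2.06%) at an unadjusted p under 0.05, of which those higher in KO were 1.27% of all genes tested and those lower 0.786%. Hspb1, higher in KO, was the 1 member of 35 among the 340, with means ± SD of 2748 ± 301 over 2 WT and 4788 ± 1471 over 3 KO libraries, a log2 difference of 0.76 (SE 0.29, limma unadjusted p = 0.0333, adjusted p = 1.0). Btg2 was at 1498 ± 310.0 and 872 ± 384 (log2 -0.86, SE 0.39, limma unadjusted p = 0.0612). Ier3 was at 1077 ± 430.3 and 671 ± 75.2 (log2 -0.63, SE 0.31, limma unadjusted p = 0.0822). Dnaja1 had a log2 difference of -0.36 (SE 0.22). Differences lay below 0 for 17 of 23 immediate early members (median -0.07) and for 5 of 12 heat shock members (median 0.07), against 48.1% of all genes. The immediate early count rested on WT5: without that library it was 10 of 23, with a median of 0.03, and that of heat shock members was 8 of 12, against 50.2% of all genes. The log2 difference of Ier3 was -0.21 without WT5. With the library group number as a term the Hspb1 difference was 0.69 (limma unadjusted p = 0.0520). The Hspb1 values of KO1 and KO3, the prefixes with high Xist, were 5044 and 6115, and that of KO9 was 3206. In ameloblasts KO1, KO3 and KO9 had 3594, 2886 and 2933, so KO3 and KO9 were nearly level there. The part of sex in the Hspb1 difference of stratum intermedium was not tested. KO libraries lay wholly below WT for Ier3 and Junb, 2 of 35 members against 7.44% of all genes. They lay wholly above WT for Hsp90aa1, Hspb1 and Klf2, 3 of 35 against 7.76%.

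**Figure D4:**
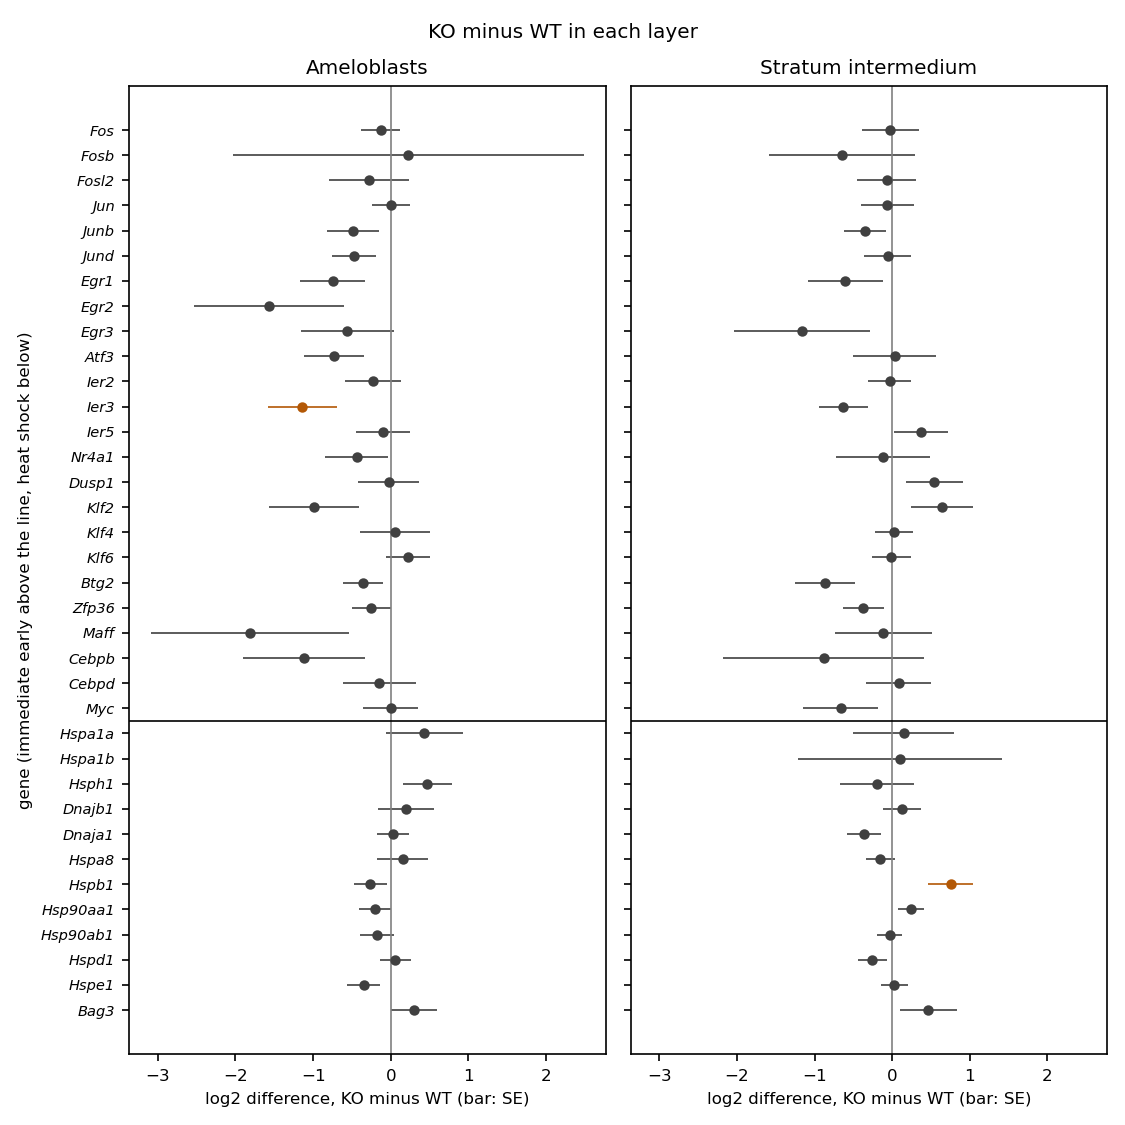
Log2 difference KO minus WT for each listed member in ameloblasts (left) and stratum intermedium (right), with bars of 1 standard error from limma and orange where the unadjusted p was under 0.05. Ier3 on the left and Hspb1 on the right are the only orange points, and no member passed the adjusted threshold.

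The difference in the KO effect between layers, for which limma took the within-prefix layer difference as its value, passed an adjusted p of 0.05 for 0 of 15567 genes (0%) and an unadjusted p under 0.05 for 747 (4.80%), with 2.57% above 0 and 2.23% below. Klf2 and Hspb1, both below 0, were the 2 of 34 members among the 747. Values below 0 were found for 20 of 34 members, against 49.6% of all genes. For Klf2, the KO effect in ameloblasts minus that in stratum intermedium was -1.63 (SE 0.46, limma unadjusted p = 0.0152, adjusted p = 0.864). For Hspb1 it was -1.02 (SE 0.38, limma unadjusted p = 0.0433, adjusted p = 0.864). Next by p came Atf3 at -0.76 (SE 0.43) and Myc at 0.66 (SE 0.38). Maff at -1.70 (SE 1.60) and Fosb at 0.87 (SE 2.77) had wider values with far larger errors. Endothelial markers, relevant to Klf2, took 0.00514% to 0.0199% of the counts in ameloblasts and 0.0274% to 0.0374% in stratum intermedium, and their part in the Klf2 difference was not tested.

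Other genes of the same pathways gave 0 calls at an adjusted p of 0.05 in all 4 tests. In the prefix test, 10 of 32 other early response genes, 1 of 18 upstream kinases and factors and 6 of 40 other chaperones were below an unadjusted 0.05, against the 16.8% of all genes. The smallest limma adjusted p among them was 0.0739, shared by Ccn1, a matricellular early gene (F = 19.5, WT10 minus WT5 -1.89), and Hspb8, the small heat shock partner of Bag3 (F = 19.6, WT10 minus WT5 0.70). WT5 exceeded WT10 in both layers for 19 of 32 other early response genes and 5 of 40 other chaperones, and the reverse held for 8 of 32 and 26 of 40. In KO against WT, Ccn2, another matricellular early gene, had the smallest p of these lists in ameloblasts (log2 -2.30, SE 0.70, limma unadjusted p = 0.0133, adjusted p = 0.989). Hspb6, a small heat shock protein, had it in stratum intermedium (log2 0.89, SE 0.34, limma unadjusted p = 0.0327, adjusted p = 1.0). Next came Klf10 in ameloblasts (0.95, SE 0.37) and Nfkbiz in stratum intermedium (-1.04, SE 0.45). Ccn2 also had the smallest p for the difference between layers (-2.30, SE 0.45, limma unadjusted p = 0.00331, adjusted p = 0.864), followed by Elk1, a partner of SRF (-1.45, SE 0.34).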

How the data were processed

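The signal values were deposited by the authors as normalized counts per gene, 1 table for each layer. According to the submitters' processing notes, reads were processed with build GRCm38, and STAR 2.5.2b, featureCounts, DESeq, FastQC and Picard 2.8.1 are listed with no order or settings. The table names, per the file headers, give Ensembl release 101. The same names carry the word noOutlier, and whether libraries were left out as outliers is not known here. Per the labels, RNA with an integrity number above 8 went into a stranded polyA kit. Every listed gene reached 10 normalized counts in at least 3 libraries of its table, so genes under that floor are not seen. Read depth is unknown. Sums per library ran from 21006977 to 26856177, and the number of unused columns was 0.

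Tests were made with limma 3.58.1 (R 4.3.3), two-sided with a trend, on log2 of the normalized count plus 1, where the mean reached 10. P-values were adjusted by Benjamini-Hochberg over 16212 ameloblast genes, 16543 stratum intermedium genes or the 15567 shared by both. That scale understates changes of low genes. The prefix test had terms for prefix, layer and layer by genotype, which left 3 residual degrees of freedom. Members and lists were chosen with earlier results of these data known. Values in every library were given for members picked for their role and for the 4 with the smallest p in each test. Egr3, and members named for a count or a layer pattern, were added after their values were seen. Positions and exon lengths came from GENCODE for GRCm38, promoters from RefSeq for GRCm38.p6, and plots from matplotlib 3.10.9 in Python 3.11.15.

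Alternatives tried were a pseudocount of 0.5 or 8, a mean of 50 or no minimum, quantile normalization, median-ratio rescaling that leaves out the 20 most abundant, haemoglobin and mitochondrial genes, robust variance, a threshold of 0.1, a term for replicate number or library group, and each library or prefix left out. The tests were tried on simulated data drawn from each gene's mean and spread. Of 200 genes given a log2 change of 2, limma recovered 26.5% in ameloblasts, 44.5% in stratum intermedium, 0% in the genotype by layer test and 51% in the prefix test, and of those given a change of 1 it recovered 0% in each.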

Additional observations from a re-analysis of the deposited data

How the results depend on the processing

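Of the values recomputed under the alternatives, 665 stayed within their margin and 48 moved, most of these on leaving out a library. Without WT5 the median log2 difference of heat shock members was -0.11 in ameloblasts and -0.17 in stratum intermedium, against 0.06 and 0.07 with all libraries. In stratum intermedium it was -0.036 with the library group number as a term. Of the shared genes, 88 passed the adjusted threshold in the prefix test, against 151 with a pseudocount of 8, 220 after quantile normalization, 328 at a threshold of 0.1, 14 with library group in place of prefix and 8 to 69 on leaving out each prefix. Members at an unadjusted p under 0.05 there numbered 8 immediate early (5 with library group, 6 to 7 on leaving out each prefix) and 1 heat shock (2 with a mean of at least 50, with quantile normalization or with robust variance, 0 to 1 on leaving out each prefix).

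For KO against WT, members at an unadjusted p under 0.05 numbered 1 in each layer. With library group as a term the number was 0 in each, and in stratum intermedium it was 2 with quantile normalization. On leaving out each library it was 0 to 4 in ameloblasts and 0 to 6 in stratum intermedium, the highest without WT10 in both. Genes past the adjusted threshold in ameloblasts numbered 0 to 1, the 1 without WT5. Heat shock members below 0 numbered 4 to 8 in each layer, and immediate early members below 0 numbered 16 to 23 in ameloblasts and 10 to 17 in stratum intermedium. In the test between layers, 1 to 2 members were below 0.05 on leaving out each prefix. Members on 1 side of the layer difference in every prefix left numbered 5 to 8 immediate early and 0 to 4 heat shock.

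The replicate numbers of the titles do not mark the mouse, since each of the 3 KO prefixes has another number in each layer. Deviations of same-numbered WT and KO libraries were correlated across genes at 0.0862 and -0.116 in ameloblasts and -0.187 and -0.133 in stratum intermedium, so the numbers were not used as pairs. With the replicate block, members at an unadjusted p under 0.05 numbered 1 in ameloblasts and 3 in stratum intermedium, and 0 genes passed the adjusted threshold in either. With 2 WT libraries a layer, simulated log2 changes of 1, given to 200 genes drawn from all genes, were recovered in 0% after adjustment. A member without a call may therefore still differ by that much. Members with a smaller spread than most genes were not simulated apart, so the run sets no limit for them.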
